A study of Mus musculus with 5 samples.

Results

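The collagen gene family was followed across 5 whole-lung expression arrays of mice. Its members were chosen from the platform annotation by name alone: every probe set with a single gene symbol made of Col, a number, a and a number was taken. This gave 82 of 45101 probe sets, which stood for 42 of 18194 genes. A probe set is a group of short oligonucleotides on the array that together read 1 transcript. Of the 42 genes 15 had 1 probe set and 27 had several, up to 4. Where a gene had several, the brightest on average stood for it, and a gene entered the comparisons when at least 1 array reached log2 6, an intensity of 64. That floor was passed by 31 collagen genes (73.8%) and by 11500 of all genes (63.2%).

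The groups were 2 knockouts and 3 wild types, all female and untreated, each read on 1 array. The strain 4B(-/-) lacks PDE4B and was set against its wild-type line 4B(+/+), and 4D(-/-) lacks PDE4D and was set against 4D(+/+). PDE4B and PDE4D are phosphodiesterases, enzymes that degrade cyclic AMP. These 4 lines started from a mixed C57BL/6 and 129/Ola background and were backcrossed to C57BL/6J over 11 generations or more. C57 is C57BL/6J itself. The series belongs to work on emphysema caused by elastase, but no animal here had received it. Its design looked for genes at C57 levels in 4D(+/+) and at other levels in the remaining 3 lines. RNA of 3 of 5 lungs was mixed for each strain, so the spread between animals cannot be seen, and with 1 array per strain no difference has a replicate check or a p-value. A gene is called higher or lower below when 2 arrays differ by at least 1.5-fold.

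Collagens are the main structural proteins of the extracellular matrix, built from 3 chains wound into a triple helix. Fibrillar types such as I, III and V form the cables of airway wall, vessel wall and septum. Type IV forms the mesh of basement membranes, where the chains of Col4a3, Col4a4 and Col4a5 are typical of the alveolar and glomerular membranes. Type VI forms beaded filaments around cells, and types II, IX, X and XI are known from cartilage, which in the lung surrounds the large airways. New chains are hydroxylated, folded and exported by dedicated enzymes and chaperones, then trimmed and crosslinked outside the cell.

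The promoters of 4 members are shown because these genes stand for the patterns reported below. Col1a2 stands for the lung fibrillar collagens and Col8a1 for the genes past 1.5-fold in 4D(-/-), whereas Col10a1 and Col11a1 stand for the cartilage types. The sequences are the 150 bases before the annotated start, 5′ to 3′ on the gene's strand, from RefSeq for build GRCm38.p6. Capitals mark matches on either strand to any of 4 motifs: the CCAAT box, the TATAAA form of the TATA box, the GC box written GGGCGG and the full cyclic AMP response element, TGACGTCA.
Col1a2, chr6:4505468-4505617, plus strand: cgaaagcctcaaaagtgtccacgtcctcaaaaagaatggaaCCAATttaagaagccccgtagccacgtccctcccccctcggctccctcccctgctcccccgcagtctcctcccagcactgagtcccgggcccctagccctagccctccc
Col8a1, chr16:57754738-57754887, minus strand: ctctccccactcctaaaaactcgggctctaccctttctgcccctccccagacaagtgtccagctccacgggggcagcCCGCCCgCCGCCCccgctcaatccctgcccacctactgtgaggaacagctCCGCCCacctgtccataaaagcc
Col10a1, chr10:34389831-34389980, plus strand: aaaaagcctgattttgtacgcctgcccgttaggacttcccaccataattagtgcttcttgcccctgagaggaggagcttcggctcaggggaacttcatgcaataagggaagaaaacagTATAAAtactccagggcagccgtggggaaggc
Col11a1, chr3:114030390-114030539, plus strand: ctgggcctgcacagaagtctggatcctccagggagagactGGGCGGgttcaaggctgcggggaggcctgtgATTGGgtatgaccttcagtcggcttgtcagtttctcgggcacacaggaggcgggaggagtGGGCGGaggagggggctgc

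In these windows Col1a2 held 1 CCAAT and Col8a1 held GGGCGG in reverse 3 times. Col10a1 held 1 TATAAA, 32 bases before the start, and Col11a1 held 2 copies of GGGCGG and 1 reversed CCAAT. The promoter table, with 250 bases before and 50 after each start, had 36 promoters for 33 of the 42 collagen genes. GGGCGG or its reverse was in 22 of the 36 and in 35.7% of all 32851 promoters, and CCAAT was in 13 of 36 and 37.4%. TATAAA was in 5 of 36 and 13.6%, and TGACGTCA in 1 of 36 and 1.79%. A match describes letters in a window only.

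There were 2 patterns in the family. In the first, 19 of 31 collagens read above every other array in 4D(-/-), against 17.9% of all genes over the floor. By at least 1.2-fold 11 did so at the brightest probe set, against 1.46%. In the second, the cartilage collagens varied between the strains by larger folds from low intensities. Across the 5 arrays the highest value of a collagen was a median 1.40-fold over its lowest, against 1.22-fold for all genes over the floor. All 5 genes of types II, IX, X and XI over the floor spanned at least 2-fold (2.33-fold to 5.67-fold), and of the other 26 collagens only Col1a1 did (2.26-fold).

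**Figure D1:**
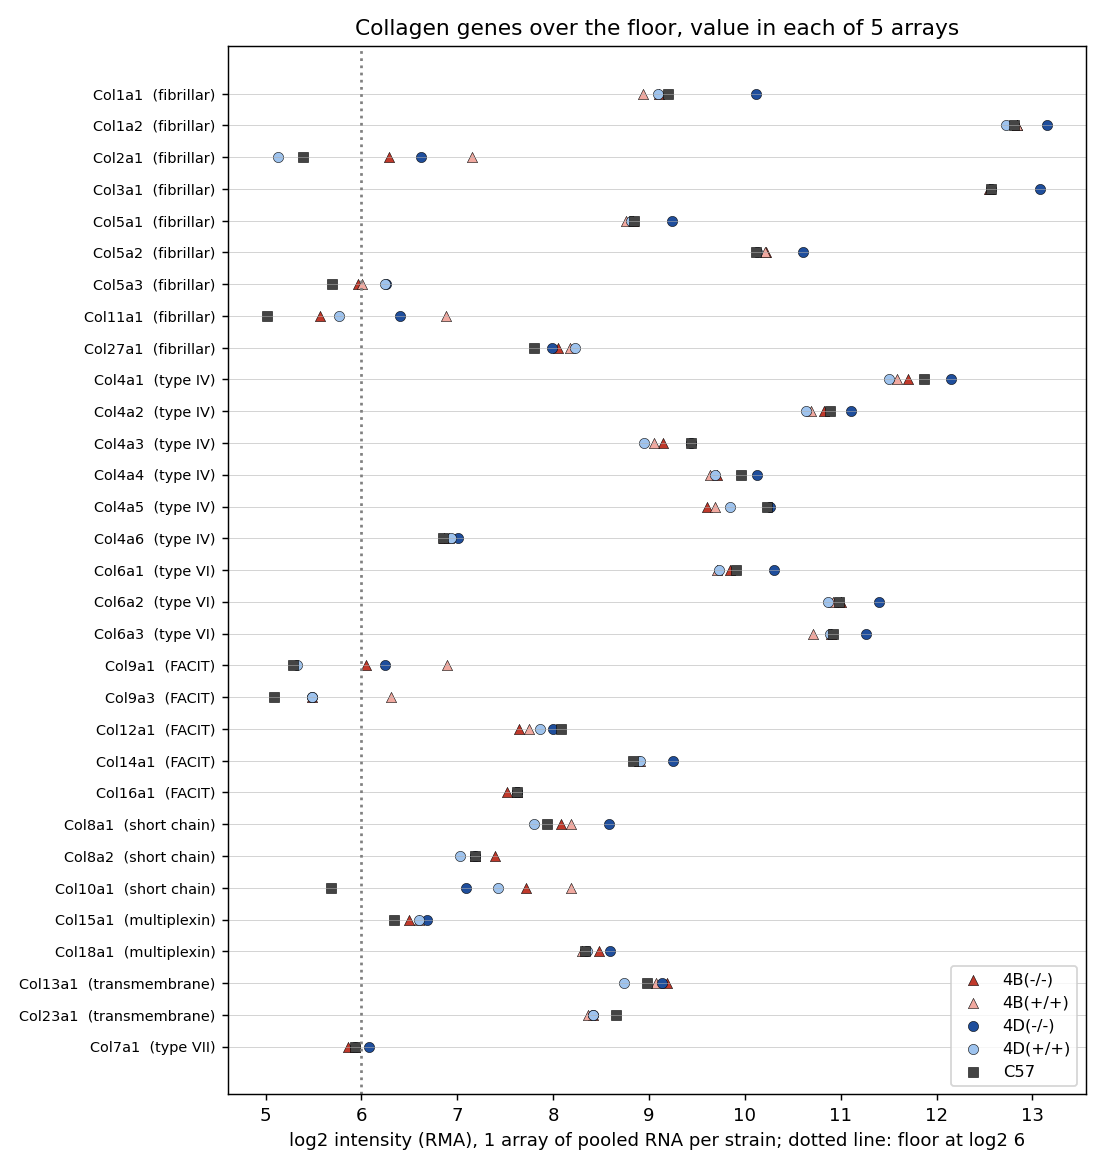
Log2 intensity (horizontal axis) of the 31 collagen genes over the floor in each of the 5 arrays, 1 point per array, with the collagen class in brackets (FACIT means fibril-associated) and the floor as a dotted line. Points of equal value hide each other. The dark blue circle of 4D(-/-) lies to the right of the other arrays for 19 genes, among them Col1a1, Col3a1, Col5a1, Col6a1 and Col6a2.

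The arrays themselves were alike in scale, with medians of 45.4 to 46.6 and 43.7% to 44.0% of probe sets at 64 or more. The 3′ to 5′ ratio of the Gapdh control probe sets, a sign of RNA integrity, was 1.77 in 4D(-/-) and 1.31 in 4D(+/+), 1.57 in 4B(-/-) and 1.37 in 4B(+/+), and 1.72 in C57. The same ratio for actin was 1.86 in 4D(-/-), 1.83 in 4D(+/+), 1.79 in 4B(-/-), 1.62 in 4B(+/+) and 1.88 in C57. Pde4d had 1 probe set over the floor, at 386 in 4D(-/-) and 523 in 4D(+/+). The brightest of 3 for Pde4b read 457 in 4B(-/-) and 558 in 4B(+/+). The labels do not say which exons were deleted, so neither reading settles them. Whole-lung RNA cannot tell more cells of a kind from more RNA per cell.

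The first comparison asked how collagen expression in the lung without PDE4D differed from its wild-type line. Most collagens read above 4D(+/+) in 4D(-/-), though few by 1.5-fold: 26 of the 31 were above, 3 were equal and 2 were below, where 45.6% of all genes over the floor read above. The median log2 difference of the family was 0.41, and that of all genes 0.00. By at least 1.5-fold 6 collagens were higher, against 1.1% of all genes, and 0 were lower, against 4.53%. At 2-fold 2 were higher, against 0.209%. The 6 were Col2a1 (2.81-fold), Col1a1 (2.03-fold), Col9a1 (1.90-fold), Col8a1 (1.72-fold), Col11a1 (1.56-fold) and Col4a1 (1.56-fold). With values under 64 set to 64, 4 of them were past 1.5-fold, without Col9a1 and Col11a1. Just outside lay Col6a1 (1.48-fold), Col6a2 (1.45-fold) and Col3a1 (1.42-fold). The 2 genes below 4D(+/+) were Col27a1 and the cartilage type Col10a1, which read 136 in 4D(-/-) and 172 in 4D(+/+). The cartilage type Col9a3 read 44.8 in both, so the cartilage types did not rise together.

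**Figure D2:**
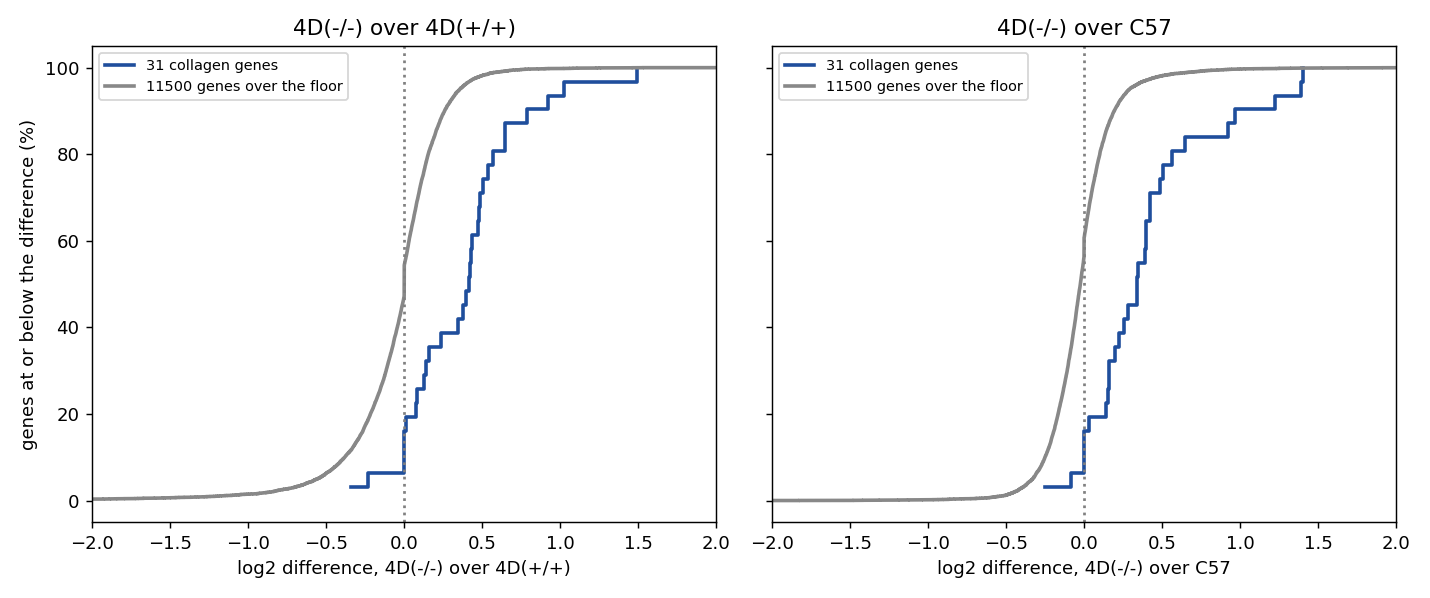
Cumulative share of genes (vertical axis, percent) against the log2 difference (horizontal axis) of 4D(-/-) over 4D(+/+) on the left and over C57 on the right. The curve of the 31 collagen genes runs to the right of that of all 11500 genes in both panels, with medians of 0.41 and 0.34. The axis stops at -2 and 2, and all collagens lie inside it.

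Among fibrillar collagens, Col1a1, the main chain of type I collagen, read 1111 in 4D(-/-) and 547 in 4D(+/+), with 552 in 4B(-/-), 491 in 4B(+/+) and 586 in C57. The value of 4D(-/-) was 1.90-fold over the next highest array. Col1a2, the partner chain of type I, read 9070 in 4D(-/-) and 6751 in 4D(+/+), with 7338 in both 4B lines and 7184 in C57. Its fold over 4D(+/+) was 1.34. Col3a1, the single chain of type III in vessels and septa, read 8627 in 4D(-/-) and 6086 in 4D(+/+), with 6004 in 4B(-/-), 6035 in 4B(+/+) and 6086 in C57. The other 4 arrays thus lay within a narrow band for Col3a1, and 4D(-/-) stood 1.42-fold above the highest of them. Col5a2, a chain of type V that sets fibril diameter together with Col5a1, read 1557 in 4D(-/-) and 1118 in 4D(+/+), with 1196 in 4B(-/-), 1188 in 4B(+/+) and 1113 in C57. Col5a1 read 604 in 4D(-/-) and 451 in 4D(+/+), and between 435 and 458 in the other 3 arrays. The 2 fibrillar genes that did not follow were Col27a1, with 255 in 4D(-/-) and 299 in 4D(+/+), and the dim Col5a3, with 76.4 and 75.7.

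In the basement membrane group all 6 type IV genes read above 4D(+/+), with log2 differences of 0.07 to 0.65 and a median of 0.46. Col4a1, which with Col4a2 forms the general basement membrane network, read 4556 in 4D(-/-) and 2913 in 4D(+/+), with 3331 in 4B(-/-), 3076 in 4B(+/+) and 3743 in C57. Col4a2 read 2207 in 4D(-/-) and 1589 in 4D(+/+), with 1815 in 4B(-/-), 1654 in 4B(+/+) and 1890 in C57. C57 was the nearest array to 4D(-/-) for both genes, and the fold over C57 was 1.22 for Col4a1 and 1.17 for Col4a2.

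The chains of the alveolar membrane depended on the wild type used. Col4a3 read 693 in 4D(-/-) and 495 in 4D(+/+), but 695 in C57. Col4a5 read 1228 in 4D(-/-) and 922 in 4D(+/+), but 1201 in C57. Col4a4 read 1116 in 4D(-/-) and 825 in 4D(+/+), and 999 in C57. Against 4D(+/+) these genes stood 1.33-fold to 1.40-fold higher, whereas against C57 the folds were 0.998 for Col4a3, 1.02 for Col4a5 and 1.12 for Col4a4. Col4a6 was nearly level in all arrays, at 128 in 4D(-/-) and 122 in 4D(+/+).

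The 3 type VI genes, which encode the chains of the common beaded filament, read above every other array in 4D(-/-). Col6a1 read 1260 in 4D(-/-) and 851 in 4D(+/+), with 923 in 4B(-/-), 840 in 4B(+/+) and 960 in C57. Col6a2 read 2701 in 4D(-/-) and 1862 in 4D(+/+), with 2054 in 4B(-/-), 1933 in 4B(+/+) and 2018 in C57. Col6a3 read 2459 in 4D(-/-) and 1897 in 4D(+/+), with 1906 in 4B(-/-), 1672 in 4B(+/+) and 1933 in C57. Their folds over 4D(+/+) were 1.30 to 1.48, and 1.27 to 1.34 over C57.

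Col8a1, a short-chain collagen made by vessel-wall and mesenchymal cells, read 384 in 4D(-/-) and 223 in 4D(+/+), with 271 in 4B(-/-), 292 in 4B(+/+) and 245 in C57. Of the fibril-associated collagens, Col14a1 read 610 in 4D(-/-) and 480 in 4D(+/+), Col12a1 256 and 234, and Col16a1 198 in both. Col18a1, the source of endostatin, read 385 in 4D(-/-) and 327 in 4D(+/+), and the related Col15a1 103 and 96.9. The transmembrane Col13a1 read 564 in 4D(-/-) and 429 in 4D(+/+), Col23a1 340 in both, Col8a2 146 and 130, and the anchoring-fibril gene Col7a1 67.4 and 61.2. The genes of this paragraph other than Col8a1 differed by at most 1.31-fold.

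In 19 of the 31 collagens 4D(-/-) was above every other array, where 17.9% of all genes over the floor were so. It was below every other array in 0 collagens, against 29.9% of all genes. Col7a1, 1 of the 19, passed the floor only through 4D(-/-), so its rank was fixed by the floor. The array of 4D(+/+) was in turn the lowest for 9 collagens, against 20% of all genes. A margin of at least 1.2-fold over every other array was held by 11 collagens and 1.46% of all genes. These were Col1a1, Col3a1, Col5a1, Col6a2, Col8a1, Col6a1, Col5a2, Col6a3, Col14a1, Col1a2 and Col4a1. The margin is that of the brightest probe set. At a dimmer probe set over the floor it was 0.995-fold for Col8a1, 1.04-fold for Col14a1, 1.15-fold for Col4a1 and 1.11-fold for Col5a1. That probe set of Col5a1 passed the floor only through 4D(-/-), so its rank was fixed by the floor. The dimmer probe sets of Col1a1, Col1a2, Col3a1, Col5a2 and Col6a2 over the floor kept a margin of 1.2-fold. The comparison with C57 in place of 4D(+/+) gave 26 of 31 above, against 39.3% of all genes, and a median log2 difference of 0.34. By 1.5-fold 6 were higher than in C57, against 1.37% of all genes, and 0 were lower, against 0.791%. These were Col10a1 (2.65-fold), Col11a1 (2.62-fold), Col2a1 (2.34-fold), Col9a1 (1.96-fold), Col1a1 (1.90-fold) and Col8a1 (1.57-fold). Col3a1 lay outside at 1.42-fold.

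**Figure D3:**
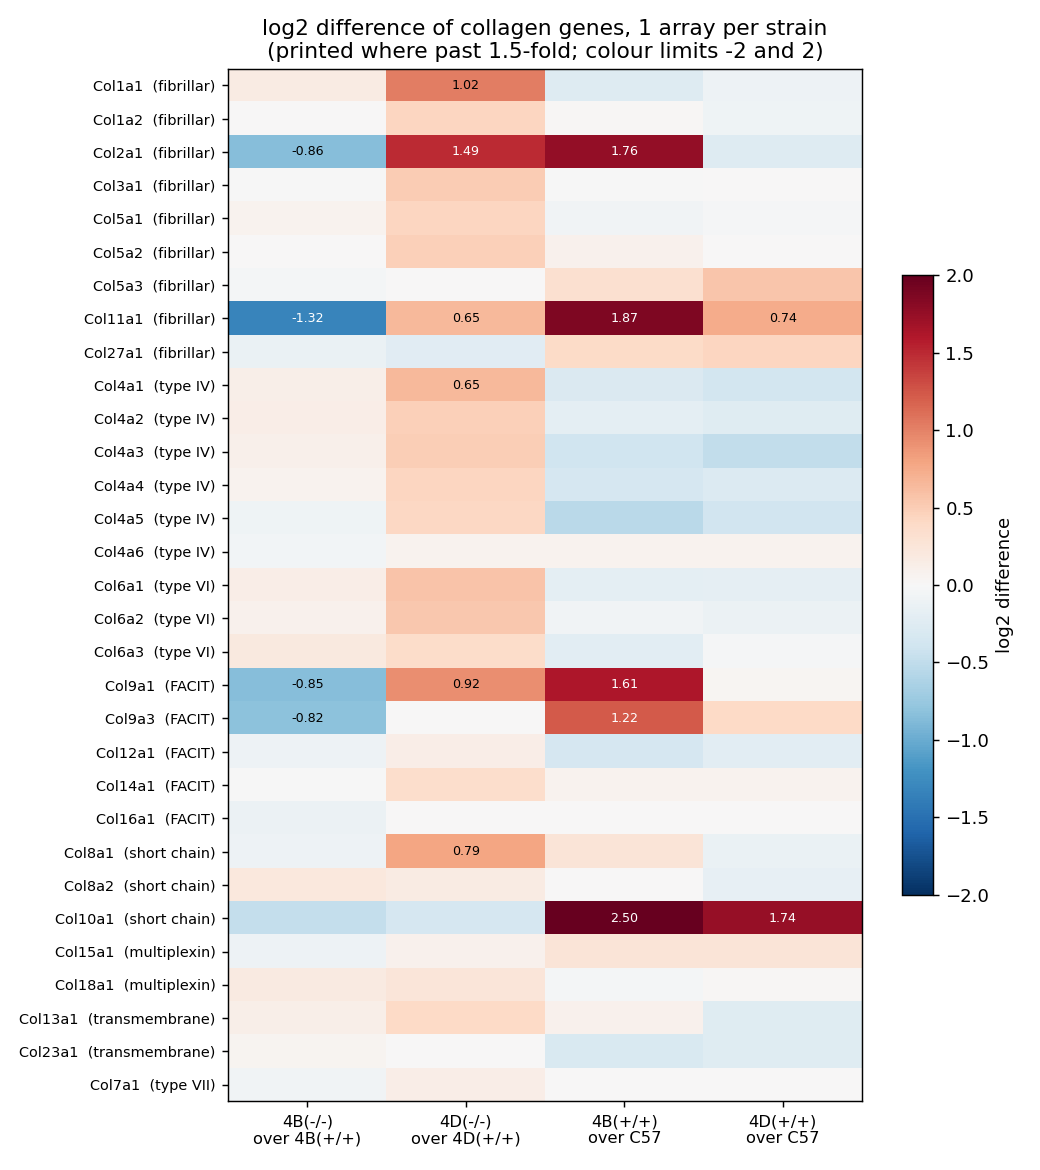
Log2 differences of the 31 collagen genes (rows, by class) in 4 comparisons (columns), red for higher and blue for lower in the strain named first, with values printed where they pass 1.5-fold. The second column, 4D(-/-) over 4D(+/+), is red in most rows, with Col1a1 at 1.02. The cartilage types Col2a1, Col9a1, Col9a3, Col10a1 and Col11a1 carry the dark cells of the third column.

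Probe sets of 1 gene did not always give the same fold. Of 17 collagens with several probe sets over the floor, 8 had some past 1.5-fold and some within it in 4D(-/-) over 4D(+/+). They were Col1a1, Col1a2, Col3a1, Col4a1, Col5a1, Col5a2, Col8a1 and Col11a1. Col5a1 is among them only through a probe set that reached the floor in 4D(-/-) alone, at 69.6 against 46.2 in 4D(+/+). With values under 64 set to 64 the fold of that probe set was 1.09. The dimmer probe set of Col1a1 gave 1.35-fold, with 211 in 4D(-/-), 156 in 4D(+/+), 172 in 4B(-/-), 161 in 4B(+/+) and 159 in C57. For Col1a2, Col3a1 and Col5a2 the dimmer probe set gave the larger fold. That of Col3a1 read 1064 in 4D(-/-) and 625 in 4D(+/+), 1.70-fold, that of Col1a2 gave 1.62-fold and that of Col5a2 1.84-fold. Signs differed within a gene only for Col4a6, where both differences were small (0.07 and -0.06).

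**Figure D4:**
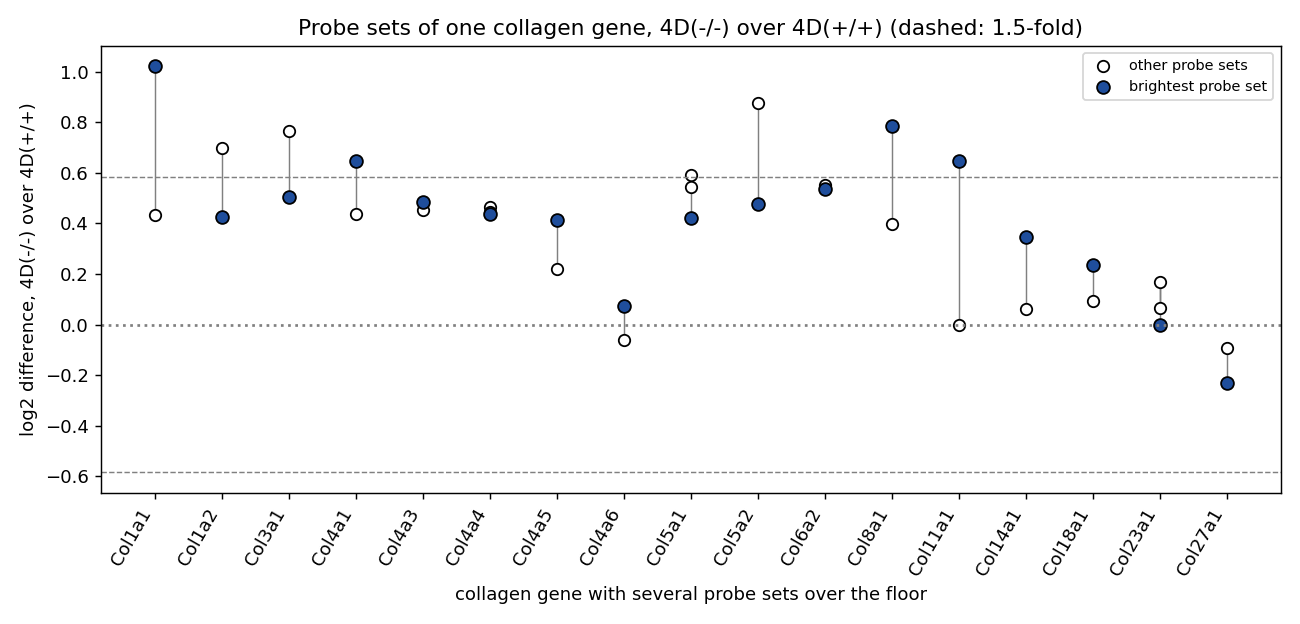
Log2 difference of 4D(-/-) over 4D(+/+) (vertical axis) for each probe set over the floor of the 17 collagen genes that have several, with the brightest filled. All probe sets of Col1a1, Col1a2, Col3a1, Col5a1 and Col5a2 lie above 0, and their distance from the dashed 1.5-fold line differs between probe sets of 1 gene. A dimmer probe set of Col5a1 reached the floor only in 4D(-/-).

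The machinery of collagen synthesis was read from the same arrays. Of 56 listed genes for folding, export, crosslinking, fibril-binding proteoglycans and receptors, 41 were over the floor. In 4D(-/-) 0 of them were higher and 0 lower than in 4D(+/+) by 1.5-fold, against 1.1% and 4.53% of all genes, so the count is near the background. Their median log2 difference was 0.05. Among 16 folding and modification genes the median was 0.01. The collagen chaperone Serpinh1 read 2693 in 4D(-/-) and 2380 in 4D(+/+), and the prolyl hydroxylase subunit P4ha1 659 and 711. The 3 crosslinking enzymes over the floor stood above 4D(+/+), led by Loxl1 with 1308 in 4D(-/-) and 907 in 4D(+/+), 1.44-fold. The receptor genes had a median of 0.19, with the tyrosine kinase receptor Ddr2 at 889 in 4D(-/-) and 755 in 4D(+/+).

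Markers of cells that can make these collagens differed in both directions. By 1.5-fold 1.1% of all genes were higher and 4.53% lower in 4D(-/-) over 4D(+/+). Of 8 fibroblast markers 0 passed that fold, and their median was 0.12. They divided into 4 above 4D(+/+), namely Pdgfrb at 0.47, Fgf10 at 0.43, Pdgfra at 0.39 and Itga8 at 0.33, and 4 below it, at -0.19 to -0.09. Their summed intensity was 13494 in 4D(-/-), 11106 in 4D(+/+) and 13679 in C57. The 6 smooth muscle markers all read below 4D(+/+), with a median of -0.40, a size close to that of the collagen median and of opposite sign. Endothelial and alveolar type 1 markers had medians of 0.13 and 0.14. In these 3 lists 0 passed 1.5-fold. Skeletal muscle markers moved strongly the other way: all 9 were lower, with summed intensities of 8863 in 4D(-/-), 41239 in 4D(+/+) and 4344 in C57. The 5 adipose markers were lower too, summing to 3124 in 4D(-/-), 11437 in 4D(+/+) and 3790 in C57. Of 3 tendon markers over the floor 2 were lower, with Tnmd at 56.9 in 4D(-/-), 354 in 4D(+/+) and 66.5 in C57. Of 11 cartilage markers 1 was lower and 0 were higher, with a median of -0.22 and sums of 3807 in 4D(-/-), 4064 in 4D(+/+) and 1835 in C57. Of 5 squamous and basal epithelial markers 4 were lower, summing to 750 in 4D(-/-), 1510 in 4D(+/+) and 385 in C57. Against C57 the 4D(-/-) array had 9 of 9 skeletal muscle markers and 8 of 11 cartilage markers higher, where 1.37% of all genes were higher. Of 5 adipose markers 1 was lower than in C57, where 0.791% of all genes were lower. The part of these tissues in the collagen differences was not tested.

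The second comparison asked the same for PDE4B. The lung collagens of 4B(-/-) were nearly level with 4B(+/+): without types II, IX, X and XI, all 26 genes lay within 1.5-fold, with log2 differences of -0.13 to 0.20 and a median of 0.03. Over all 31 the median was -0.01, against 0.01 for all genes, and 14 read above 4B(+/+), against 52.1% of all genes. Col1a2 read 7338 in both arrays, Col3a1 6004 in 4B(-/-) and 6035 in 4B(+/+), and Col1a1 552 and 491. The largest differences among the 26 were Col8a2, a basement membrane collagen of the cornea, at 168 in 4B(-/-) and 146 in 4B(+/+), and Col6a3 at 1906 and 1672.

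By 1.5-fold 4 of the 31 collagens were lower in 4B(-/-), against 0.93% of all genes, and 0 were higher, against 0.383%. At 2-fold 1 was lower, against 0.304%. All 4 were cartilage types. Col11a1, a chain of the thin cartilage fibril, read 47.4 in 4B(-/-) and 118 in 4B(+/+), a log2 difference of -1.32. Col2a1, the main cartilage fibril, read 78.4 in 4B(-/-) and 142 in 4B(+/+), 1.81-fold lower. Col9a1 and Col9a3, chains of the type IX collagen on the surface of those fibrils, were 1.80-fold and 1.77-fold lower, at 66.2 and 44.8 in 4B(-/-) and 119 and 79.2 in 4B(+/+). Several of these values are under the floor. With values under 64 set to 64, Col11a1 was 1.85-fold lower and no longer past 2-fold, and Col9a3, which reached the floor only in 4B(+/+), was 1.24-fold lower, which left 3 genes past 1.5-fold. Col10a1, the collagen of hypertrophic cartilage, lay just outside at 1.39-fold lower, with 210 in 4B(-/-) and 291 in 4B(+/+). Against C57 the same genes stood the other way, with 4B(-/-) above C57 in all 5 by log2 0.40 to 2.03. Of these, 3 were higher by 1.5-fold, against 2.53% of all genes above C57 at that fold. Of the 31 collagens 1 was lower, against 3.57%, namely Col4a5 at its brightest probe set only. Over the family 17 read above C57, against 51.5% of all genes.

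Of 41 synthesis and receptor genes 0 were higher in 4B(-/-), against 0.383% of all genes, and 1 was lower, against 0.93%. The lower gene was the fibril-binding proteoglycan Fmod, at 441 in 4B(-/-) and 688 in 4B(+/+). Of 11 cartilage markers other than collagens 1 was lower, Comp at 344 in 4B(-/-) and 624 in 4B(+/+), and their median was -0.44. Their summed intensity was 5735 in 4B(-/-), 6746 in 4B(+/+) and 1835 in C57. The 9 skeletal muscle markers were all lower in 4B(-/-), summing to 4091 in 4B(-/-) and 9098 in 4B(+/+). All 3 tendon markers over the floor were lower too, Tnmd by 3.37-fold, Thbs4 by 1.95-fold and Fmod, which is in both lists, by 1.56-fold. Of 5 adipose markers 2 were lower, Ucp1 by 3.15-fold and Cidea by 2.15-fold. The part of these tissues in the cartilage collagens was not tested.

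Each wild-type line was also set against C57, which shows how far 2 arrays differ where no gene was deleted. Line, RNA pool and array cannot be told apart in these differences. Both comparisons use the same C57 array. In 4B(+/+) 5 collagens were higher than in C57, against 2.23% of all genes, and 0 were lower, against 1.33%. All 5 were also past 2-fold, against 0.835% of all genes, and were the cartilage types over the floor. In the family 14 genes read above C57, against 45.7% of all genes. The array of 4B(+/+) was the highest of all for 5 collagens, against 10.8% of all genes, and these were the same cartilage genes. Of them, Col9a3 passed the floor only through 4B(+/+), so its rank was fixed by the floor. Col10a1 read 291 in 4B(+/+) and 51.4 in C57 (5.67-fold), Col11a1 118 and 32.4 (3.65-fold), Col2a1 142 and 42.0 (3.38-fold), Col9a1 119 and 38.9 (3.06-fold) and Col9a3 79.2 and 34.0 (2.33-fold). The remaining cartilage genes, Col11a2 and Col9a2, stayed under the floor but were also highest in 4B(+/+), at 43.4 against 22.3 in C57 and 24.9 against 14.9. C57 was under the floor for all of these genes, so the folds rest on values near background. With values under the floor set to 64, the folds were 4.55 for Col10a1, 2.22 for Col2a1, 1.86 for Col9a1, 1.85 for Col11a1 and 1.24 for Col9a3.

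In 4D(+/+) 2 collagens were higher than in C57, against 4.25% of all genes, and 0 were lower, against 1.24%. At 2-fold 1 was higher, against 1.83%, and 11 of 31 read above C57, against 42.5%. Col10a1 read 172 in 4D(+/+) and 51.4 in C57, 3.35-fold, and Col11a1 54.3 and 32.4, 1.67-fold with both under the floor. Col2a1 went against the other cartilage genes there, at 35.0 in 4D(+/+) and 42.0 in C57, and Col9a1 was level at 40.2 and 38.9. The low Col2a1 and Col9a1 of 4D(+/+) are also the values under the folds of 2.81 and 1.90 in 4D(-/-). With values under 64 set to 64 those became 1.54 for Col2a1 and 1.19 for Col9a1, and that of Col11a1 became 1.33.

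**Figure D5:**
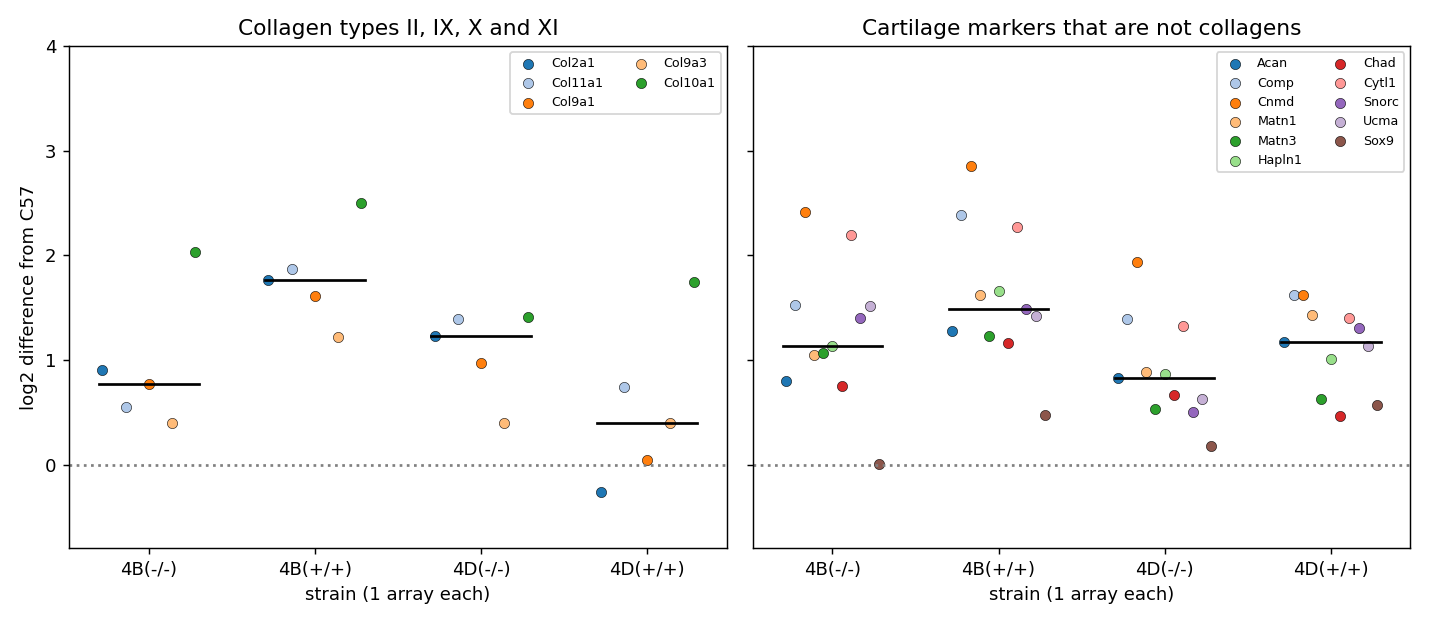
Log2 difference from C57 (vertical axis) in the other 4 strains, for the 5 cartilage collagens over the floor on the left and 11 other cartilage markers on the right, with 1 point per gene and the median as a bar. The 4B(+/+) array has the highest median in both panels, 1.76 and 1.48. In 4D(+/+) the medians differ most between the panels, at 0.40 and 1.17.

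Cartilage markers that are not collagens stood above C57 in both wild-type lines. Of 11, 10 were higher by 1.5-fold in 4B(+/+), where the median was 1.48, and 9 in 4D(+/+), where it was 1.17. The shares of all genes higher than in C57 were 2.23% in 4B(+/+) and 4.25% in 4D(+/+). Cnmd read 261 in 4B(+/+), 111 in 4D(+/+) and 36.1 in C57, Comp 624, 366 and 119, and the secreted Cytl1 3695, 2024 and 765. The 11 markers summed to 6746 in 4B(+/+), 4064 in 4D(+/+) and 1835 in C57. The 4 bone markers measured were under the floor, and the tendon marker Tnmd read 163 in 4B(+/+), 354 in 4D(+/+) and 66.5 in C57. Markers of other tissues were higher than in C57 as well. Skeletal muscle had 9 of 9 higher in each wild-type line, adipose tissue 5 of 5 in 4B(+/+) and 4 of 5 in 4D(+/+), and squamous and basal epithelium 3 of 5 in 4B(+/+) and 5 of 5 in 4D(+/+). The part of these tissues in the cartilage collagens was not tested.

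Outside cartilage, the type IV genes were the ones furthest from C57 as a group. Apart from Col4a6 all read below C57 in both wild-type lines, none by 1.5-fold at the brightest probe set, with a class median of -0.31 in 4B(+/+) and -0.32 in 4D(+/+). Col4a5 read 823 in 4B(+/+), 922 in 4D(+/+) and 1201 in C57. Col4a3 read 529 in 4B(+/+), 495 in 4D(+/+) and 695 in C57, and its second probe set passed 1.5-fold in 4D(+/+), at 224 against 337 in C57. Markers of alveolar type 1 cells also lay slightly below C57, the median being -0.15 for 4B(+/+) and -0.19 for 4D(+/+). The endothelial medians were -0.19 for 4B(+/+) and -0.24 for 4D(+/+). At its brightest probe set Col4a5 was lowest of all in 4B(-/-), at 779, the one collagen of that strain past 1.5-fold below C57. Its second probe set did not repeat this, with 291 in 4B(-/-) and 284 in C57. The fibrillar genes Col1a1, Col1a2 and Col3a1 were within 1.2-fold of C57 in both wild-type lines, and among the remaining fibrillar genes outside cartilage the closest to the 1.5-fold limit were Col5a3 in 4D(+/+), at 75.7 against 51.6, and Col27a1, at 289 in 4B(+/+), 299 in 4D(+/+) and 223 in C57. In the synthesis list 2 of 41 genes were higher in 4D(+/+), against 4.25% of all genes, a count near the background. In 4B(+/+) 3 of 41 were higher, against 2.23%. Both lines had P4ha1, at 752 in 4B(+/+) and 711 in 4D(+/+) against 459 in C57. Both also had the proteoglycan Lum, at 653 and 607 against 351. The other gene in 4B(+/+) was Fmod, at 688 against 324 in C57.

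Both knockouts lay above all 3 wild-type arrays in 4 collagens, against 5.55% of all genes, and below all 3 in 0, against 3.67%. At the brightest probe set the 4 were Col13a1, Col18a1, Col5a2 and Col6a2, and the margins in 4B(-/-) were small. Col18a1 read 356 in 4B(-/-) and 385 in 4D(-/-), and 315 to 327 in the wild types. Col6a2 read 2054 in 4B(-/-), 2701 in 4D(-/-) and at most 2018 in the wild types, and Col5a2 1196, 1557 and at most 1188. Col13a1 read 582 in 4B(-/-), 564 in 4D(-/-) and 429 to 538 in the wild types. Of these 4, Col5a2 and Col6a2 are also among the 11 with a margin of 1.2-fold in 4D(-/-). A second probe set did not repeat the order for Col18a1, with 193 in 4B(-/-) and 201 in 4B(+/+). The same held for Col5a2, with 282 in 4B(-/-), 302 in 4B(+/+) and 319 in C57. The second probe set of Col6a2 kept both knockouts above the wild types, and Col13a1 has 1 probe set.

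Several collagen genes that lie next to each other on a chromosome, in the RefSeq gene order of GRCm38.p6, gave like values. Col4a1 and Col4a2, which are neighbours on chromosome 8, differed in 4D(-/-) over 4D(+/+) by log2 0.65 and 0.47. Col4a3 and Col4a4 on chromosome 1 differed by 0.48 and 0.44, Col3a1 and Col5a2 on the same chromosome by 0.50 and 0.48, and Col6a1 and Col6a2 on chromosome 10 by 0.57 and 0.54. The X-linked pair Col4a5 and Col4a6 did not match, at 0.41 and 0.07, and Col9a1 stood at 0.92 beside Col19a1, which is under the floor. Col6a1 and Col18a1, with 2 genes between them, gave 0.57 and 0.24. Outside these pairs Col1a2 stood at 0.43 and Col5a1 at 0.42, but Col1a1 at 1.02, Col12a1 at 0.13 and Col27a1 at -0.23. The family median was 0.41. Whether neighbours are more alike than other collagens was not tested. These are descriptions of a few pairs in 1 comparison.

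The 11 collagen genes under the floor in all arrays were Col6a4, Col6a5, Col9a2, Col11a2, Col17a1, Col19a1, Col20a1, Col22a1, Col24a1, Col25a1 and Col26a1. Col25a1 came nearest, at 59.6 to 62.5, and Col17a1, the hemidesmosome collagen of basal epithelium, read 51.0 to 55.4. The brightest probe sets were those of Col1a2 and Col3a1 and the dimmest those of Col6a5 and Col24a1, near 6. Brightness also depends on the probes, so no order of expression between genes was read from it. Just inside the floor lay Col7a1, which reached it only in 4D(-/-), and Col9a3, which reached it only in 4B(+/+).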

How the data were processed

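Whole-lung RNA of 5 mouse strains was measured on 3′ expression arrays, 1 per strain. Per the submitters' processing notes the authors used RMA, and the deposited intensity values are on a linear scale, 1 per probe set. Its version, settings and genome build are not stated in the labels. Precision is limited by the number of arrays. RMA equalises array distributions, which can shift small differences, and in 6.94% to 8.09% of genes over the floor 2 compared arrays held the same value.

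All values were then put on a log2 scale. By the platform annotation 34958 probe sets had 1 symbol, 932 had several and 9211 had none, and symbols were updated by gene ID through the RefSeq table. The brightest probe set stood for a gene, the floor was log2 6 in the highest array, and calls used 1.5-fold. No test was possible. Named were all collagens past 1.5-fold, the members of each class over the floor, synthesis genes past 1.5-fold in a knockout comparison and up to 3 markers per list. P4ha1, Serpinh1, Loxl1, Ddr2, Lum and Itga8 were named outside this rule, after their values were seen. The collagens and the lists were chosen with earlier results of these data known. Of 56 synthesis genes 51 were measured. Counting was tested on simulated data. Alternatives were a 2-fold threshold, floors of log2 5 and 7, the median of probe sets, cyclic loess (limma 3.58.1), centring and other references. Every probe set, the family without cartilage types, and values under the floor set to it were added after seeing the data. Python 3.11.15 and R 4.3.3 were used.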

Additional observations from a re-analysis of the deposited data

Results flagged for a closer look

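For 3 cartilage collagens the 2 knockouts differed from their own wild-type lines in opposite directions by more than 1.5-fold. Col11a1 had a log2 difference of 0.65 in 4D(-/-) over 4D(+/+) and -1.32 in 4B(-/-) over 4B(+/+). Col2a1 had 1.49 in 4D(-/-) and -0.86 in 4B(-/-), and Col9a1 had 0.92 in 4D(-/-) and -0.85 in 4B(-/-). The values of 4D(+/+) are all under the floor of 64. With values under 64 set to 64 the folds in 4D(-/-) were 1.54 for Col2a1, 1.33 for Col11a1 and 1.19 for Col9a1, so that only Col2a1 kept calls in opposite directions. The difference between the lines was not tested, since each strain has 1 array. Among the 3 wild types the values ran over 35.0 to 142 for Col2a1, 38.9 to 119 for Col9a1 and 32.4 to 118 for Col11a1, wider than the distance between the knockouts, which read 98.3 in 4D(-/-) and 78.4 in 4B(-/-) for Col2a1, 76.2 and 66.2 for Col9a1 and 84.9 and 47.4 for Col11a1. A second Col11a1 probe set gave 0.00 in 4D(-/-) over 4D(+/+) and -1.03 in 4B(-/-) over 4B(+/+). It reached the floor only in 4B(+/+), at 100, so its direction in 4B(-/-) was fixed by the floor. With values under 64 set to 64 it was 1.57-fold lower in 4B(-/-).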

How the results depend on the processing

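Of 126 values recomputed under the alternatives 107 stayed within 1.5 times (counts) or 0.1 log2 (medians). The median of 4D(-/-) over 4D(+/+) ranged from 0.37 to 0.42. Against C57 it was 0.34, and against the mean of the 3 wild types 0.36. The 6 higher genes became 2 at 2-fold, 3 against the mean of the 3 wild types and 3 without cartilage types. They became 10 when each of 51 probe sets was counted, among them a Col5a1 probe set that reached the floor only in 4D(-/-). For 4B(-/-) the 4 lower genes became 1 with a floor of log2 7, 2 with the median of probe sets, 1 at 2-fold, 1 against C57, and 0 against the mean wild type or without cartilage types. The 0 higher became 3 against C57 and 1 against the mean wild type. The 5 genes higher in 4B(+/+) became 2 with a floor of log2 7 and 0 without cartilage types. The 2 higher in 4D(+/+) became 1 with a floor of log2 7, 1 at 2-fold, 1 with values under the floor set to it and 0 without cartilage types, and the 0 lower became 1 over all probe sets. A stricter floor and the cartilage exclusion leave fewer genes. Elsewhere the cause was not tested. No paired analysis was possible because each group has 1 array. Pooled RNA on single arrays shows neither animal nor array error, and intensities under 64 are near background.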
